A study of Mus musculus with 6 samples.

Results

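The transcripts described here are those of DNA repair genes in cultured mouse skin cells. A list of 57 genes was taken from 8 repair and damage signalling pathways, and 56 of them had a row of their own on the arrays, out of 19935 genes measured. Xrcc2 was not analysed here. Rows were matched to the list by gene symbol alone, but the list was chosen with earlier results of these data known. The cells were primary keratinocytes from wild type CD1 mice, kept in a low-calcium growth medium, and every culture received a retrovirus. For 3 samples that virus carried caNFATc1, a recombinant human NFATc1 whose autoinhibitory domain was mutated so that it is constitutively active. For the 3 control samples it was the empty MSCV vector, so all 6 samples share the infection. NFATc1 is a transcription factor normally held in check until calcium activates the phosphatase calcineurin, and the comparison asks what changes in keratinocytes when it is active. The replicates are called biological, but neither the infected share of cells, the time after infection nor the number of animals is stated.

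The deposited values are log2 values relative to each row's own median over the 6 arrays. They show how arrays differ for a gene but not how abundant its transcript is, so genes cannot be ranked by level. For the same reason, whether keratinocyte markers were present and those of other cells absent could not be checked. Differences are caNFATc1 minus vector on the log2 scale. They were tested with limma over all 19935 genes, first with group as the only term and then with a term for the replicate number, called the replicate block, which compares same-numbered arrays with each other. The estimate is the same in both fits and its standard error (SE) is not. The ± after a difference is the SE with the block, with n = 3 pairs, and the adjusted p is Benjamini-Hochberg over all genes. A gene is said to have fallen only if its adjusted p was under 0.05 with the block. Replicate 1 stood apart in both groups: the X-inactivation RNA Xist was at least 5.97 log2 units lower there than in replicates 2 and 3. Rcan1, a known NFAT target, rose in caNFATc1 cells by 3.38 ± 0.10 (limma adjusted p = 0.000685 with the block and 0.0113 without). The row of mouse Nfatc1 itself did not pass (0.04 ± 0.07, 0.847 with the block), and whether its probes can read the human insert was not tested.

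Cells repair DNA by several routes that differ in the lesion they handle. Homologous recombination copies an intact sister chromatid to mend broken DNA and stalled replication forks, and works mainly in S and G2 phase, as does the Fanconi anaemia pathway, which removes crosslinks between strands. Mismatch repair corrects copying errors behind the fork. Nucleotide excision repair cuts out bulky damage such as the dimers that ultraviolet light makes in skin, base excision repair replaces altered bases, and end joining religates broken ends in any cycle phase.

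Most recombination and Fanconi genes had lower values in caNFATc1 cells, and most nucleotide excision repair genes had higher ones, although none of the latter passed the test. With the replicate block 10 of the 56 genes fell and 0 rose: the recombination genes Exo1, Blm, Rad54l, Rad51b, Bard1, Mre11a and Brca2, and the Fanconi genes Fancb, Fanci and Brip1. These 10 are 17.9% of the members, against 2.38% of all genes lower and 3.73% higher in the same fit. Without the block limma called 0 members (0.01% of all genes were lower), with 16 lower and 4 higher at an unadjusted p under 0.05, rates that over all genes were 5.64% and 7.07%. At that unadjusted threshold the block fit had 27 members lower and 6 higher, where all genes gave 9.78% and 11.7%. The count of 10 depends on single pairs. Leaving out replicate 1, 2 or 3 of both groups gave 1 (Exo1), 0 and 15 members lower with the block, and 9 of the 10 were among those 15. An unmoderated linear model with the block, which takes each gene's spread from its own arrays alone, called 0 members and 1 gene in all.

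In direction, 44 of the 56 members were lower, or 78.6%, where 52.6% of all genes were, and the median difference of the members was -0.20 against -0.01 over all genes. In 33 members all 3 pairs were lower and in 8 all 3 were higher, with background shares of 21.3% and 21.6%. The groups did not overlap for 17 members that were lower (all genes, 9.09%) and for 4 that were higher (9.64%). No member differed by more than 1 log2 unit.

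**Figure D1:**
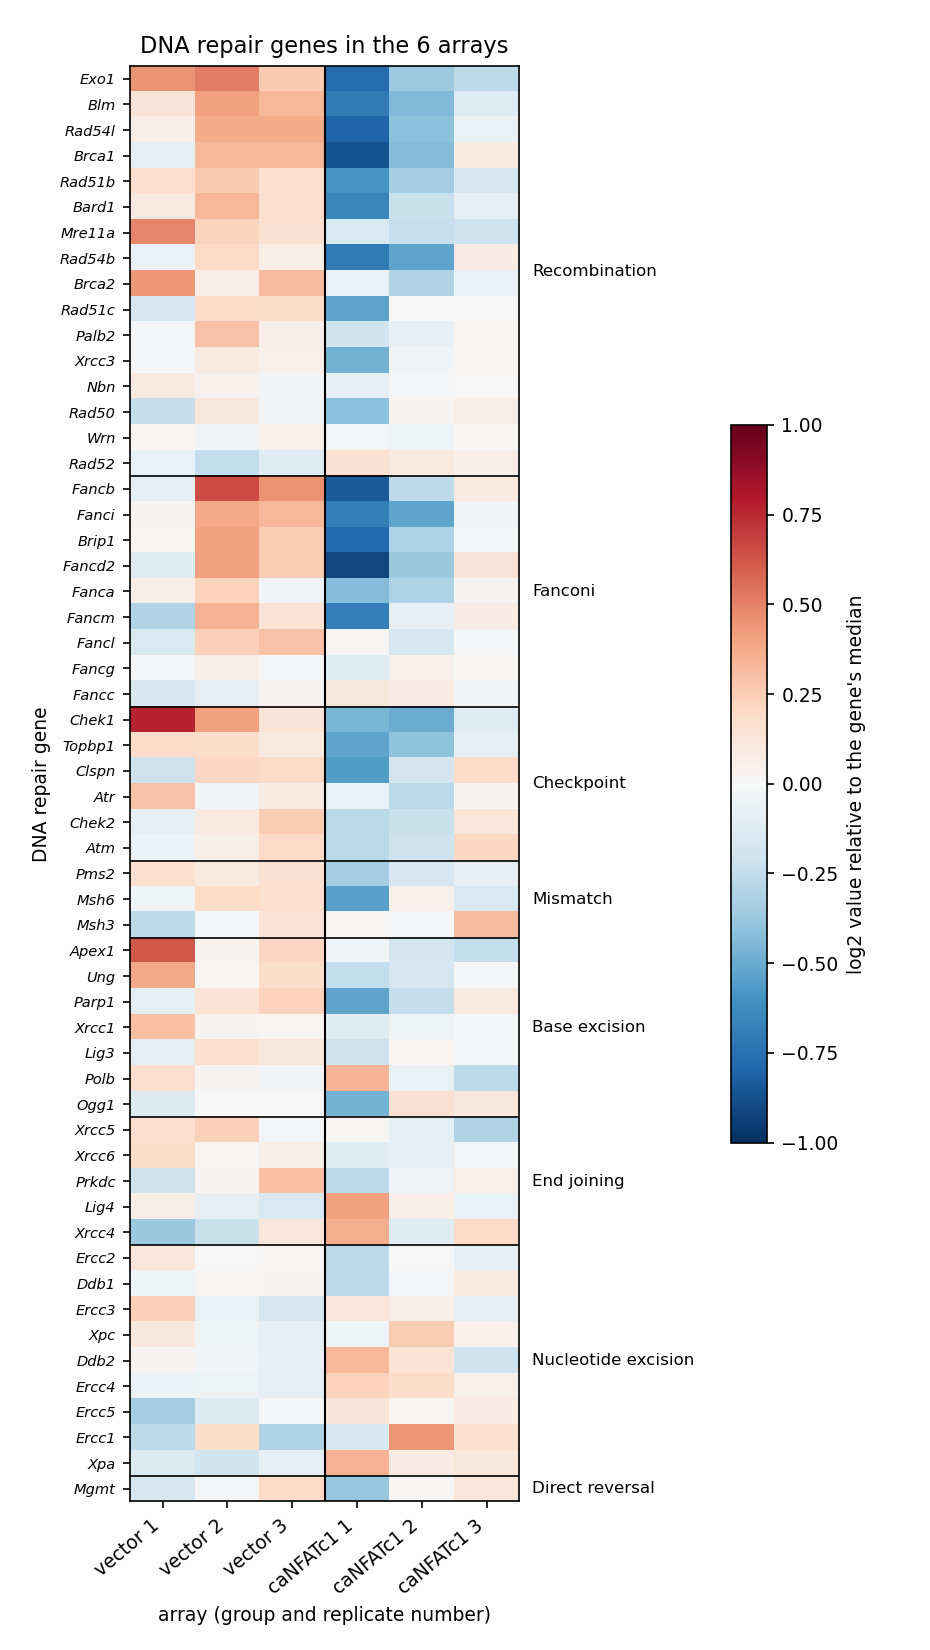
Log2 values relative to each gene's median over the 6 arrays (colour) for the 56 DNA repair genes (vertical axis, grouped by pathway) in the 3 vector and 3 caNFATc1 arrays (horizontal axis). Blue is below and red above the median; many recombination and Fanconi genes are blue in caNFATc1 replicates 1 and 2 and paler in replicate 3, and Xpa and Ercc4 are above the median in all 3 caNFATc1 arrays.

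Homologous recombination held 16 measured genes, of which 15 had a negative difference and 7 fell. Their median difference was -0.43, and it was -0.57, -0.41 and -0.21 in pairs 1, 2 and 3. Exo1, a nuclease that resects broken ends and also serves mismatch repair, had the largest difference of all members. It read 0.45, 0.51 and 0.26 in vector replicates 1, 2 and 3 and -0.77, -0.36 and -0.26 in caNFATc1 replicates 1, 2 and 3. The groups did not overlap, and Exo1 fell by 0.86 ± 0.14 to 0.549 of the vector level (limma adjusted p = 0.0284, or 0.0922 without the block). Blm, a helicase that dissolves joined recombination intermediates, read 0.13, 0.41 and 0.33 in vector arrays and -0.70, -0.44 and -0.13 in caNFATc1 arrays. The difference was -0.71 ± 0.10, with an adjusted p of 0.0203 with the block and 0.153 without, and no caNFATc1 array reached a vector array. Rad54l, a motor protein that helps the recombinase invade the template, read 0.07, 0.37 and 0.37 against -0.80, -0.41 and -0.07. No caNFATc1 array overlapped the vector arrays here either, and Rad54l fell by 0.70 ± 0.10 (adjusted p = 0.0231, or 0.227 without the block).

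The breast cancer gene products and their partners load and assist the recombinase. Brca2, which loads it, read 0.43, 0.06 and 0.32 in vector arrays and -0.07, -0.30 and -0.06 in caNFATc1 arrays, and fell by 0.41 ± 0.07 (adjusted p = 0.0303, or 0.238 without the block). Its pair differences of -0.50, -0.36 and -0.38 were the closest to each other among the 10 genes that fell, and its groups did not overlap. Bard1, the partner of Brca1 in a ubiquitin ligase, read 0.09, 0.33 and 0.17 against -0.65, -0.22 and -0.10. It fell by 0.52 ± 0.10 without overlap (adjusted p = 0.0449, or 0.239 without the block), and its 3 rows on the array differed by -0.29, -0.72 and -0.55, all in the same direction. Brca1 read -0.09, 0.33 and 0.33 against -0.87, -0.43 and 0.09. Its vector replicate 1 lay below caNFATc1 replicate 3, so the groups overlapped, although each pair was lower, by 0.78, 0.77 and 0.24. Brca1 missed the threshold with the block (-0.60 ± 0.12, limma adjusted p = 0.05002) and without it (0.42).

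Rad51b, a paralogue of the recombinase, read 0.17, 0.26 and 0.16 in vector arrays and -0.60, -0.35 and -0.16 in caNFATc1 arrays, and fell by 0.57 ± 0.10 (adjusted p = 0.037, or 0.132 without the block), with every caNFATc1 array below every vector array. The paralogues Rad51c and Xrcc3 were lower in every pair but differed by only -0.24 and -0.20 and did not pass. Mre11a, Rad50 and Nbn encode the complex that binds and trims broken ends. Mre11a read 0.49, 0.22 and 0.15 against -0.15, -0.23 and -0.21, with tight caNFATc1 arrays, and fell by 0.49 ± 0.08 (adjusted p = 0.0304, or 0.126 without the block). The groups did not overlap. Among its partners, Rad50 differed by -0.05 ± 0.08 and Nbn by -0.06 ± 0.07, and the 2 rows of Nbn disagreed in sign, at 0.08 and -0.21. Whether Mre11a differed from its partners was not tested. Rad54b and Palb2, which links the Brca proteins, differed by -0.45 and -0.20, and Wrn, a helicase related to Blm, by -0.02 ± 0.06. Rad52, an annealing factor, was the only recombination gene with a positive difference. It was higher in all 3 pairs, by 0.22, 0.35 and 0.19, without overlap, and did not pass (0.26 ± 0.07, adjusted p = 0.0966 with the block).

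**Figure D2:**
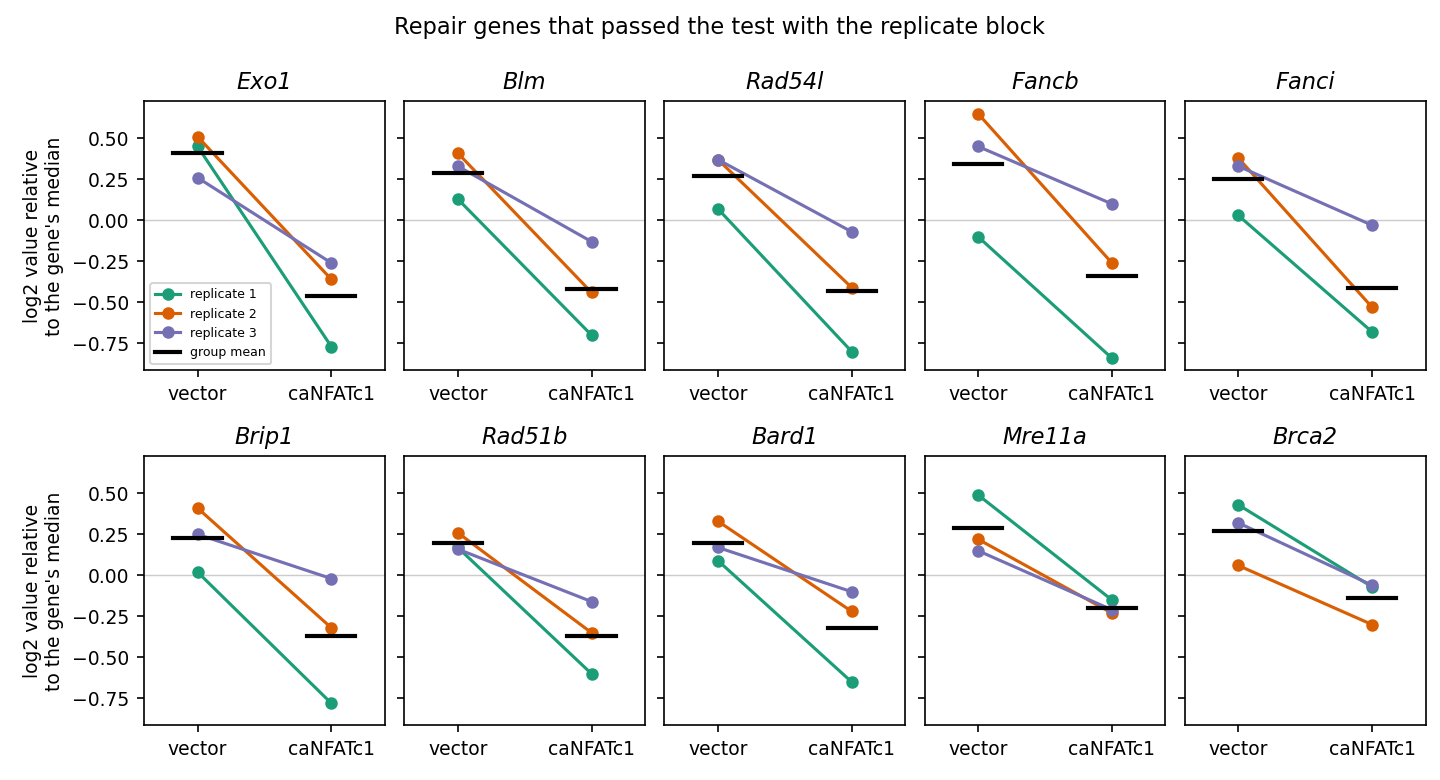
Log2 value relative to the gene's median (vertical axis) in vector and caNFATc1 arrays (horizontal axis) for the 10 repair genes that passed with the replicate block. Lines join arrays with the same replicate number and black bars are group means; all lines slope down, and in Fancb the vector array of replicate 1 lies below the caNFATc1 array of replicate 3.

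In the Fanconi pathway 8 of 9 genes had a negative difference and 3 fell, with a median of -0.33 and pair medians of -0.50, -0.54 and -0.12. Fanci and Fancd2 form the clamp that the pathway marks with ubiquitin at a crosslink. Fanci read 0.03, 0.38 and 0.33 in vector arrays and -0.68, -0.53 and -0.03 in caNFATc1 arrays, and fell by 0.66 ± 0.11 without overlap (limma adjusted p = 0.0334, or 0.228 without the block). Fancd2 read -0.13, 0.41 and 0.25 against -0.91, -0.37 and 0.13. It differed by a similar -0.56 ± 0.14 but by only -0.12 in pair 3, its groups overlapped, and it did not pass (adjusted p = 0.087 with the block).

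Brip1, a helicase that binds Brca1, read 0.02, 0.41 and 0.25 against -0.78, -0.32 and -0.02, and fell by 0.60 ± 0.12 without overlap (adjusted p = 0.0451, or 0.315 without the block). Fancb, a subunit of the core ligase complex and an X-linked gene, read -0.10, 0.65 and 0.45 against -0.84, -0.26 and 0.10. Both replicate 1 arrays were the lowest of their group, as they also were for Brca1 and Fancm but not for Exo1, Mre11a and Brca2. The reason was not tested. The groups overlapped, and Fancb, like the other genes that fell, passed only with the block (-0.67 ± 0.12, adjusted p = 0.0343, or 0.421 without the block). Other subunits of the same core complex did not pass: Fanca differed by -0.33 and Fancm by -0.29, while the ligase gene Fancl, Fancg and Fancc differed by -0.18, -0.04 and 0.13. Quantile normalization of the arrays was also tried, on the deposited values relative to each row's median and not on intensities. After it the block fit kept the 7 recombination genes, lost Fancb, Fanci and Brip1, and called Pms2 and Apex1 instead.

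Promoter sequences of the members were also examined, whether or not a gene fell. The RefSeq promoter table (GRCm38.p6) held 45 of the 56 genes, with 250 bases before and 50 after each start. TTTCCCGC, a form of the E2F binding sequence, was found on either strand for 7 of the 45 genes (15.6%), against 1.24% of all 27025 genes in the table. The 7 were Bard1, Brca2, Rad51c, Fancg, Msh6, Chek2 and Xrcc6. Among the 9 fallen genes with an entry it was in 2. CCAAT, the sequence bound by NF-Y, was in 26 of 45 (57.8%, against 41.1% of all genes) and in 6 of the 9. TTTGGCGC was in Msh3 alone (all genes, 0.585%), and TTTGAA was in 3 of 45 (all genes, 20.2%). No match of a motif overlapped a match of another. Member promoters had a median GC content of 59.8%, against 52.7% for all, and longer windows were not searched. The stretches shown place the motifs in genes that fell (Bard1, Brca2, Mre11a, Brip1) and in others that did not pass (Fancg, Ercc2). They read 5′ to 3′ on the gene's strand, and capitals mark TTTCCCGC or CCAAT, or the reverse complement of either.
Bard1 (chr1:71103142-71103222, minus strand): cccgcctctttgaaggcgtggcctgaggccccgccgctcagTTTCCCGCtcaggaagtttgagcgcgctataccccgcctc
Brca2 (chr5:150522442-150522471, plus strand): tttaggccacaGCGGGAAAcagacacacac
Fancg (chr4:43010335-43010364, minus strand): tttcttttcagTTTCCCGCggaaccgtctc
Mre11a (chr9:14784574-14784653, plus strand): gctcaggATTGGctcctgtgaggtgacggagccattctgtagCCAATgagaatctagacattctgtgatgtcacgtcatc
Brip1 (chr11:86201216-86201313, minus strand): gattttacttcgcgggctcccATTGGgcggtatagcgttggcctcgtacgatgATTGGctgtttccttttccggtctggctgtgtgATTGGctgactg
Ercc2 (chr7:19381917-19382016, plus strand): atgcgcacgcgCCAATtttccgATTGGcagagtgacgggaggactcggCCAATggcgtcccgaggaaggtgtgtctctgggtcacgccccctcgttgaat
Bard1, which fell, and Fancg, which differed by -0.04 ± 0.07, both held TTTCCCGC, and Brip1, which fell, and Ercc2, which differed by -0.17 ± 0.09, each held CCAAT 3 times. Each of these motifs was thus present in genes that fell and in genes that did not pass. These matches are letters in a window and not measured binding.

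Damage signalling genes had a negative difference in all 6 cases (all genes, 52.6%), with a median of -0.23. All 3 pairs were lower for 5 of them (all genes, 21.3%). With the block 0 passed, where 5 had an unadjusted p under 0.05. Over all genes 9.78% were lower and 11.7% higher at that threshold, the shares to set beside the unadjusted counts of the pathways that follow too. Chek1, the kinase that halts the cycle when replication stalls, read 0.77, 0.41 and 0.13 in vector arrays and -0.46, -0.50 and -0.13 in caNFATc1 arrays. The groups did not overlap and its difference of -0.80 ± 0.18 was second in size to that of Exo1, but the pairs spread from -1.23 to -0.26 and it did not pass (limma adjusted p = 0.063 with the block). Topbp1, which activates the kinase Atr, read 0.19, 0.18 and 0.09 against -0.53, -0.40 and -0.09, also without overlap (-0.50 ± 0.11, adjusted p = 0.0651 with the block). Atr, the kinase that senses exposed single strands, read 0.29, -0.03 and 0.09 against -0.07, -0.27 and 0.03 (-0.22 ± 0.08). Atr was lower in each pair but its groups overlapped, and Clspn, the adaptor through which it reaches Chek1, differed by -0.25. Chek2 and Atm form the arm that answers broken ends. Chek2 read -0.09, 0.09 and 0.25 against -0.27, -0.22 and 0.12, lower in each pair with overlapping groups (-0.21 ± 0.07), and Atm differed by -0.15.

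Of 3 mismatch repair genes, 0 passed with the block, with 2 at an unadjusted p under 0.05, and the median was -0.32. Pms2, which cuts the strand to be corrected, read 0.16, 0.10 and 0.15 in vector arrays and -0.34, -0.17 and -0.10 in caNFATc1 arrays. The groups did not overlap and the difference was -0.34 ± 0.08 (adjusted p = 0.0638 with the block). Msh6 and Msh3 compete for the same partner in recognising mismatches and larger loops, and their differences had opposite signs. Msh6 read -0.04, 0.20 and 0.16 against -0.54, 0.04 and -0.15 (-0.32 ± 0.09, adjusted p = 0.0935 with the block), and Msh3 read -0.26, -0.02 and 0.14 against 0.01, -0.01 and 0.32 (0.15 ± 0.08). Both kept their sign in each pair with overlapping groups, and the contrast between them was not tested.

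Base excision and single-strand break genes had a negative difference in 7 of 7 cases (all genes, 52.6%), with a median of -0.17. All 3 pairs were lower for 5 of them (all genes, 21.3%), and not for Polb and Ogg1. With the block 0 passed (3 at an unadjusted p under 0.05). Apex1, the endonuclease that opens the strand at a lost base, read 0.62, 0.03 and 0.21 against -0.03, -0.18 and -0.25, without overlap (-0.44 ± 0.10, limma adjusted p = 0.0591 with the block). Ung, which removes uracil from DNA, read 0.38, 0.01 and 0.18 against -0.25, -0.17 and -0.01. Its groups did not overlap, and in pair 1 the difference was -0.63 while in pairs 2 and 3 it was -0.18 and -0.19. The break sensor Parp1 read -0.10, 0.14 and 0.23 against -0.53, -0.24 and 0.10, lower in each pair with overlapping groups (-0.31 ± 0.08). Lig3, which seals the nick, read -0.10, 0.16 and 0.11 against -0.21, 0.02 and -0.02. Its pairs lay close together, at -0.11, -0.14 and -0.13. Its scaffold Xrcc1 differed by -0.17, and the gap-filling polymerase Polb and Ogg1, which removes oxidised guanine, by -0.05 and -0.02.

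End joining genes divided, with 3 lower and 2 higher in all 3 pairs, a median of -0.13 and 0 passing with the block (1 lower and 1 higher at an unadjusted p under 0.05). The lower ones encode the kinase complex that holds broken ends. Xrcc5 (Ku80) read 0.17, 0.24 and -0.01 in vector arrays and 0.01, -0.10 and -0.30 in caNFATc1 arrays (-0.27 ± 0.07, limma adjusted p = 0.0904 with the block), with overlapping groups. Xrcc6 (Ku70) read 0.18, 0.02 and 0.06 against -0.12, -0.10 and -0.02 without overlap (-0.17 ± 0.07), and Prkdc, the kinase itself, differed by -0.13 ± 0.07. The higher ones encode the ligase and its cofactor. Lig4 read 0.07, -0.08 and -0.15 against 0.41, 0.07 and -0.07 (0.19 ± 0.08), and Xrcc4 read -0.37, -0.22 and 0.12 against 0.36, -0.12 and 0.19 (0.30 ± 0.14). Both had overlapping groups, and for Xrcc4 pair 1 gave 0.73 and pairs 2 and 3 gave 0.10 and 0.07. Without vector replicate 3 the median of these genes was 0.0037.

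Nucleotide excision repair was the only pathway of more than 1 gene whose median was positive, at 0.11, with 7 of 9 genes higher, pair medians of 0.10, 0.17 and 0.10, and 0 passing with the block (4 higher and 0 lower at an unadjusted p under 0.05). Xpa, which verifies the lesion, read -0.14, -0.20 and -0.08 in vector arrays and 0.35, 0.08 and 0.11 in caNFATc1 arrays. The groups did not overlap and the difference was 0.32 ± 0.08 (limma adjusted p = 0.0845 with the block). Ercc4 and Ercc1 encode the nuclease that cuts on the 5′ side of the lesion. Ercc4 read -0.06, -0.05 and -0.10 against 0.23, 0.18 and 0.05 (0.22 ± 0.07, adjusted p = 0.124 with the block), without overlap. Ercc1 read -0.26, 0.18 and -0.31 against -0.16, 0.44 and 0.16, higher in each pair with overlapping groups (0.28 ± 0.09). Ercc5, the nuclease of the 3′ side, read -0.35, -0.14 and -0.02 against 0.13, 0.02 and 0.08 (0.25 ± 0.09), again without overlap. Without caNFATc1 replicate 3 the median of the pathway was 0.25. The damage sensors Xpc, Ddb2 and Ddb1 differed by 0.09, 0.11 and -0.07, and the helicase Ercc3 by 0.03. The other helicase, Ercc2, read 0.12, 0.0048 and 0.01 against -0.27, -0.0048 and -0.10. It went against the direction of the pathway, lower in all 3 pairs by 0.39, 0.01 and 0.11 without overlap (-0.17 ± 0.09). Mgmt, which strips alkyl groups from guanine directly, read -0.17, -0.01 and 0.20 against -0.38, 0.01 and 0.12 and differed by -0.09 ± 0.07. Its sign turned without caNFATc1 replicate 1, at 0.06.

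**Figure D3:**
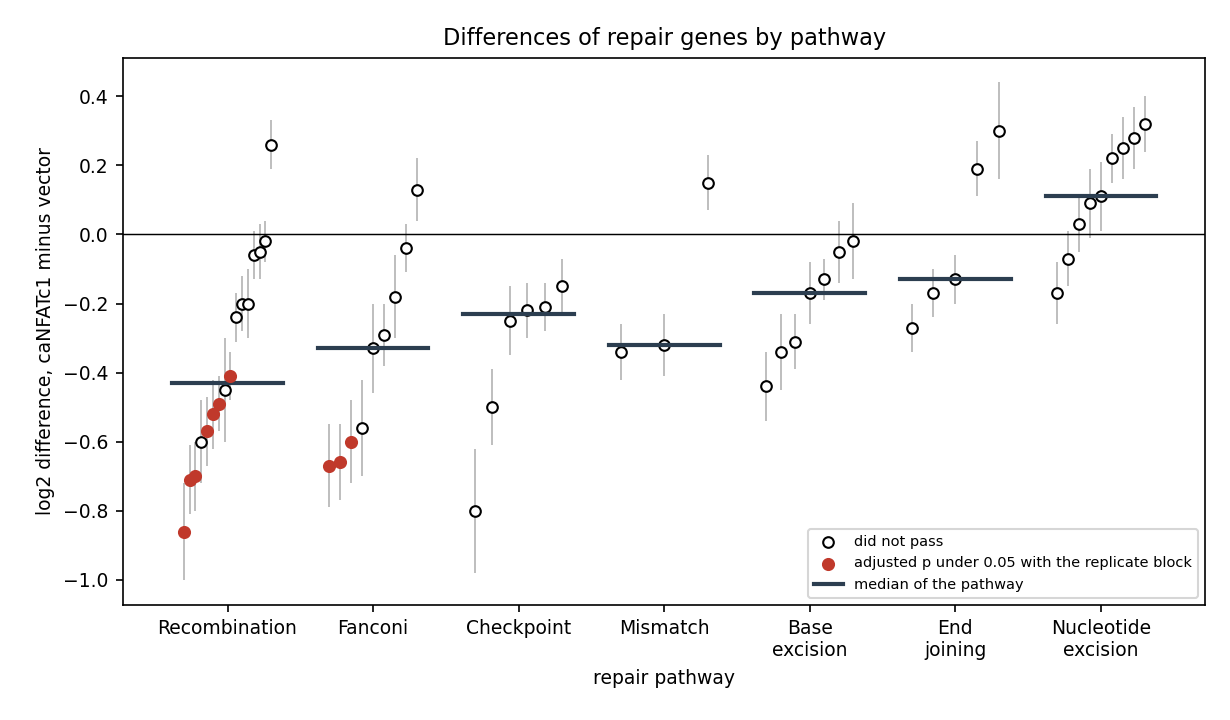
Log2 difference, caNFATc1 minus vector (vertical axis), of each repair gene by pathway (horizontal axis; Mgmt, alone in its pathway, is not drawn), with the SE of the replicate block fit as bars and the pathway median as a line. The 10 filled red points passed with the block and lie in recombination and Fanconi; the medians run from -0.43 in recombination to 0.11 in nucleotide excision repair.

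Set side by side, 10 of 25 recombination and Fanconi genes fell and 0 of the 31 other members did, with medians of -0.41 and -0.13. At an unadjusted p under 0.05 with the block, 16 of the 25 and 11 of the 31 were lower (all genes, 9.78%). Apex1, Chek1, Pms2 and Topbp1 lay just past the threshold, at adjusted p of 0.0591, 0.063, 0.0638 and 0.0651. Chek1 and Topbp1 passed without replicate 3, and Pms2 and Apex1 after quantile normalization. Genes of a pathway share the same 6 arrays and are not replicates, so the difference between pathways has no test. A wider set of 130 other repair genes, of which 115 were measured, had a median of -0.07. With the block 11 of them were lower and 0 higher (all genes, 2.38% and 3.73%). Of these, 6 were among 28 recombination genes, including the junction resolvase gene Gen1 (-0.82 ± 0.14, adjusted p = 0.0313) and the single-strand binding subunit gene Rpa1 (-0.42 ± 0.07, 0.0308). The others were Faap24 of the Fanconi core (-0.75), the glycosylase gene Neil3 (-0.61), the alternative end joining polymerase gene Polq (-0.52), and Tipin (-0.62) and Hus1 (-0.35) of fork and checkpoint protection. The recombination, Fanconi, mismatch, end joining and nucleotide excision differences of the members were smaller in the wider lists or not seen there. That contrast has no test. The median was -0.10 over the 28 recombination genes, against -0.43 in members, and -0.07 over 16 Fanconi genes, of which 1 fell, against -0.33. Over 16 further nucleotide excision genes it was -0.04, with 9 lower and 7 higher, opposite in sign to the members' 0.11. None of these 16 passed in limma with the block, and 4 were lower and 1 higher at an unadjusted p under 0.05. Checkpoint genes were close to the members: the median was -0.21 over 15 wider genes, of which 12 were lower and 2 fell, against -0.23. For base excision it was -0.13 over 16 wider genes, of which 1 fell, against -0.17. Over 4 wider mismatch genes it was 0.02, with 1 lower and 3 higher, opposite in sign to the members' -0.32. Of these 4 genes 0 passed (0 lower and 1 higher unadjusted). For end joining the median was -0.04 over 7 wider genes, of which 1 fell, against -0.13. Of 12 translesion synthesis genes 0 passed (1 lower and 2 higher unadjusted). Over all genes the unadjusted shares with the block were 9.78% lower and 11.7% higher. Without the block limma called 0 of the 115 wider genes, with 24 lower and 2 higher at an unadjusted p under 0.05 (all genes, 5.64% and 7.07%).

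Genes of the cell cycle were lower in the same arrays. All 33 measured replication and S phase genes had a negative difference (median -0.56, 12 fell with the block), and so had all 29 of G2/M and mitosis (median -0.64, 14 fell). Over all genes 52.6% had a negative difference and 2.38% were lower with the block. Without the block 0 genes of either list passed in limma, with 21 and 26 lower at an unadjusted p under 0.05 (all genes, 5.64%). The ribonucleotide reductase gene Rrm1 fell by 0.68 ± 0.10 (limma adjusted p = 0.0234 with the block) and the replication initiator gene Mcm10 by 0.84 ± 0.13 (0.028), and the mitotic checkpoint kinase genes Ttk and Bub1b differed by -0.94 and -0.84 (0.0203 and 0.024). The medians of pairs 1, 2 and 3 were -0.84, -0.67 and -0.17 for replication and -0.84, -0.84 and -0.26 for mitosis. The difference was smallest in pair 3, as it was over all 56 repair genes, at -0.34, -0.18 and -0.09, and in recombination, Fanconi and checkpoint genes. Base excision medians were -0.41, -0.14 and -0.13. Other pathways did not follow this order: mismatch medians were -0.49, -0.16 and -0.25, and end joining medians -0.06, -0.06 and -0.08. Those of nucleotide excision were 0.10, 0.17 and 0.10. In bulk RNA, fewer cells in S or G2 phase and less transcript per cell cannot be told apart, and the part of the cell cycle in the repair differences was not tested.

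Pair 3 also differed in some fibroblast markers. Over 10 such genes the mean relative value was -0.30, -0.05 and -0.08 in vector arrays and -0.25, 0.09 and 0.59 in caNFATc1 arrays. The replicate 1 means include the low Vim values given below. Median differences were -0.05, 0.03 and 0.48 in pairs 1, 2 and 3, with 7 genes higher and 3 lower. Col3a1 rose (1.20 ± 0.19, limma adjusted p = 0.0296 with the block), by 1.33, 0.62 and 1.67 in the 3 pairs. Pdgfra was higher in all 3 pairs without passing (0.83 ± 0.20, 0.0778). Pdgfrb, Dcn and Col1a2 differed by 0.75, 0.31 and 0.47 in pair 3, and by 0.26, 0.08 and 0.05 over the 3 pairs. Col5a1, Lum and Thy1 differed by 0.02, 0.01 and 0.12 in pair 3, and by -0.10, -0.01 and -0.14 over the 3 pairs. Col1a1 differed by -0.16, 0.28 and 1.31 in the 3 pairs. Vim, a mesenchymal filament gene, was -2.98 and -2.92 in the replicate 1 arrays and between -0.03 and 0.79 in the others. Among 10 basal keratinocyte genes Trp63 rose (0.42 ± 0.08, 0.0444), but the median was 0.05, with 6 higher and 4 lower. Krt5 and Krt14 differed by 0.03 and -0.02, and Krt15 by -0.58 ± 0.18, lower in all 3 pairs without passing. Among 7 differentiation genes Tgm1 and Ivl fell (-0.64 ± 0.10 and -1.24 ± 0.20, 0.0264 and 0.03). Their list had a median of -0.10, with 6 lower and 1 higher. Krt1, Krt10, Lor, Tgm3 and Sbsn differed by -0.13, -0.10, -0.06, -0.02 and 0.07. Of 8 melanocyte, 10 immune and 8 endothelial genes 0 passed with the block, with 0 at an unadjusted p under 0.05 in limma. Without the block none of these marker genes passed in limma, and Trp63, Tgm1, Ivl and Col3a1 had adjusted p of 0.322, 0.211, 0.183 and 0.108. In that fit 2 markers were lower and 3 higher at an unadjusted p under 0.05, where all genes gave 5.64% and 7.07%. The part of these markers in the repair differences was not tested.

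**Figure D4:**
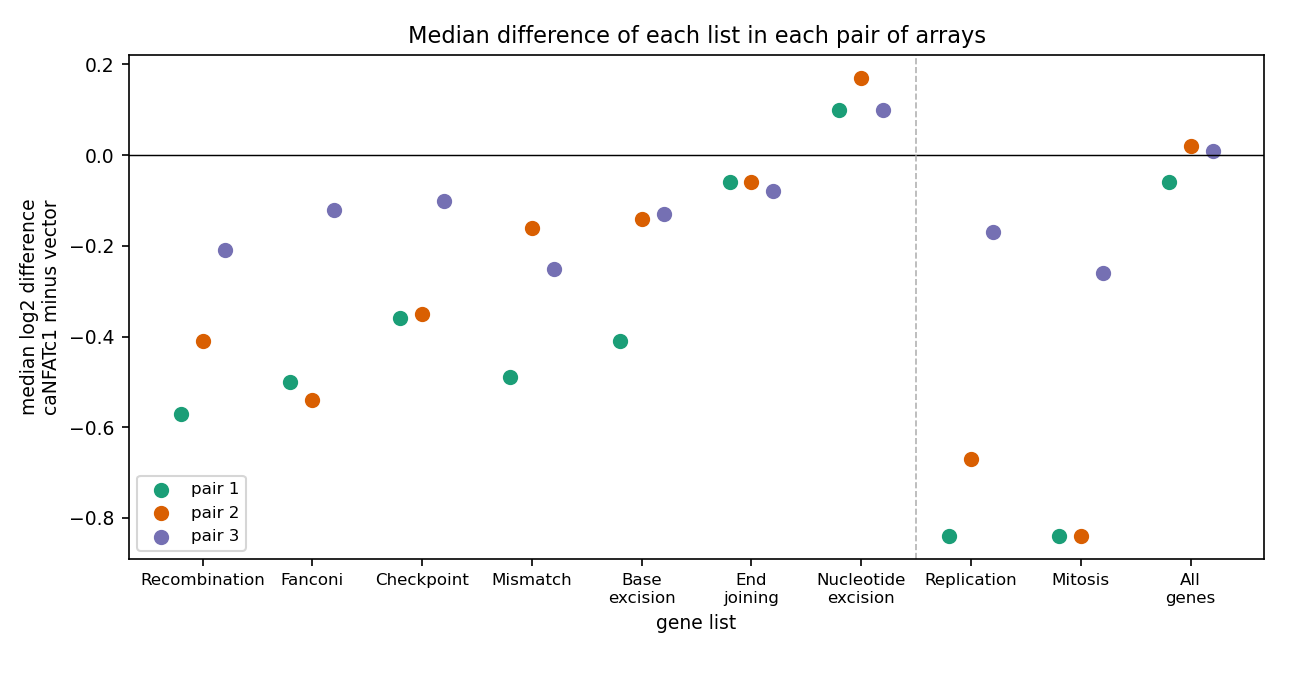
Median log2 difference, caNFATc1 minus vector (vertical axis), of each repair pathway, of replication and mitosis genes and of all genes (horizontal axis), with a point for each pair of same-numbered arrays. Pair 3 is nearest to 0 in recombination (-0.21), Fanconi (-0.12), checkpoint (-0.10), base excision (-0.13), replication (-0.17) and mitosis (-0.26). Mismatch is nearest to 0 in pair 2 (-0.16), and end joining is lowest in pair 3 (-0.08). The nucleotide excision medians lie above 0 in all 3 pairs.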

How the data were processed

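Total RNA was labelled as biotinylated cDNA and read on 6 single-colour arrays, 3 per group. The authors deposited 1 table of 28815 rows of log2 values, made with RMA on build mm8, per the submitters' processing notes. Any version or filter is not given in the sources used here. Row medians lay within 1e-06 of 0, so the deposited log2 values (base taken from RMA) are row-centred, and no filter on dim rows could be applied. Signal over background was not used here, and 6 arrays limit the precision.

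Rows were named by the platform annotation: 21780 had 1 symbol, giving 19935 genes, each the mean of its rows. Members match their symbol exactly. limma 3.58.1 in R 4.3.3 (lmFit, eBayes, two-sided) was checked on simulated data. Same-numbered arrays' deviations from group means correlated over genes at 0.71, 0.61 and 0.57, and the 6 other pairings at -0.60 to 0.18, so with a limit of 0.1 the numbers from the sample titles were taken as pairs. The p-values reflect only how these samples spread, which may be technical.

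Members, lists and tests were chosen with earlier results of these data known. Named genes are all members past a test, up to 4 per pathway by lowest p with the block, and up to 2 of each other list. Further members, Faap24, Neil3, Polq, Tipin, Hus1, Col1a1, Vim and the other keratinocyte and fibroblast markers given were named after their values were seen. The basal markers Itga6, Itgb4, Col17a1, Dst, Lamb3 and Lama3 were counted in their list but not described singly. Alternatives covered the block, left-out arrays, normalization, the choice of row and the variance model.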

Additional observations from a re-analysis of the deposited data

How the results depend on the processing

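Without the replicate block limma called 0 members lower, also after each array or pair was left out, and 10 with the block. Quantile normalization of the row-centred values gave 1 (Exo1) without the block and 9 with it. With the block, every row taken as a feature of its own gave 3 (Bard1, Blm and Rad54l). The unmoderated model, added after the data were seen, gave 0, and leaving out replicate 1, 2 or 3 of both groups gave 0 to 15. The row of highest mean, robust variances and median-centred arrays (the last added after the data were seen) each gave the same 10. No setting called a member higher.

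Medians of the recombination, Fanconi, checkpoint, mismatch and base excision genes stayed negative and moved by less than the spread of their pair medians. Some still moved by about 1.5 times or more. The mismatch median was -0.16 without caNFATc1 replicate 1 and -0.17 as a mean, and the checkpoint median was -0.38 without caNFATc1 replicate 3 and -0.36 as a mean. The Fanconi median was -0.22 without replicate 2 and -0.52 without replicate 3 of both groups. The nucleotide excision median stayed positive, at 0.08 to 0.25, when arrays or pairs were left out. The end joining median has no settled direction: it was -0.15 with quantile normalization, -0.01 as a mean, and 0.0037 to -0.18 with arrays or pairs left out. Counting 6 genes in a second pathway too put the Fanconi and mismatch medians at -0.31 and -0.33. The causes were not tested.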
